A study of Mus musculus with 20 samples.

Results

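The change in poly(A) RNA between the G1 and the G2 phase of the zygote was compared between 2 mouse backgrounds, the inbred strain C57BL/6J and the hybrid called B6CASTF1 in the labels. The zygote is the 1-cell embryo, and G1 and G2 are the phases before and after its first round of DNA replication. For each gene the quantity of interest was the strain difference: the log2 fold change of G2 over G1 zygotes in B6CASTF1 minus the same change in C57BL/6J. Genes entered by their abundance alone, a mean normalized count of at least 100 in each strain, and not by how they changed from G1 to G2. That mean runs over all stages of the strain, 2-cell embryos and, in C57BL/6J, MII eggs included, so a gene could enter through a stage outside the comparison. This left 8095 of the 24411 genes in the deposited tables, of which 7780 had a p-value in both strains and could be tested. Of the other 315, 295 had no p-value in C57BL/6J and 21 none in B6CASTF1, with 1 gene in both counts. Among the 7780, 1060 were under a level of 100 in both zygote groups of at least 1 strain.

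The series covers eggs and early embryos of both backgrounds, and its title names zygotic genome activation and the nuclear receptor Nr5a2. The comparison drew on 12 of the 20 samples: 3 of C57BL/6J G1 zygotes, 3 of C57BL/6J G2 zygotes, 3 of B6CASTF1 G1 zygotes and 3 of B6CASTF1 G2 zygotes. All 12 were labelled untreated, and each was a batch of 10 to 15 embryos whose oocytes had been matured in culture once dbcAMP was removed. Fertilization was in vitro, and the embryos were grown in KSOM medium under 5% oxygen. The libraries were made by Smart-seq2, which copies RNA from the poly(A) tail by oligo-dT priming. Neither the direction of the B6CASTF1 cross nor the father of any embryo is given in the labels, and they do not say whether a group's 3 samples were independent fertilizations. The spread behind each p-value is that between these samples and may be technical.

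A fertilized egg starts out with the RNA that the growing oocyte stored. Part of that store is kept dormant with short tails, and cytoplasmic polyadenylation or deadenylation of such mRNAs switches their translation on or off during meiosis and after fertilization, while other maternal mRNAs are degraded. The mouse genome begins to be transcribed at a low level late in the zygote and is activated broadly in the 2-cell embryo. Because the RNA was captured by its tail, a longer tail and more molecules of an mRNA cannot be told apart in these values, and neither can a smaller share of embryos with an RNA and less of it in each.

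The files hold the authors' comparisons and no values per sample, so levels are given here as approximate group means on the scale of normalized counts, derived for each strain from its mean count together with the fold changes. The strains were normalized separately, and levels are comparable within a strain only. Each change is given with its standard error (SE) after the sign ±. The 12 egg and zygote markers, among them the zona pellucida genes Zp1, Zp2 and Zp3, summed to between 253127 and 565963 in the 4 groups, with none under a level of 1. The 12 cumulus and granulosa cell markers summed to 1080 in G1 and 850 in G2 in C57BL/6J, and to 2609 and 1456 in B6CASTF1. Most of each sum was Cyp19a1 alone, with 1050 in G1 and 810 in G2 in C57BL/6J, and 2122 and 1338 in B6CASTF1. Between 2 and 8 of those 12 were under a level of 1, depending on the group. The 10 sperm and testis markers summed to between 138 and 266, and the 8 blood and oviduct markers to between 64.6 and 174. Only 1 gene of each of these lists of other cells could be tested for a strain difference: Cyp19a1, Ldhc and Epcam, in this order. The epithelial adhesion gene Epcam was called (adjusted p of the difference = 0.031), beside 1.41% of all genes tested. Its level was 72.2 in G1 and 77.8 in G2 in B6CASTF1, and 49.1 in G1 and 4.83 in G2 in C57BL/6J. In 2-cell embryos the level of Epcam was 6336 in B6CASTF1 and 2287 in C57BL/6J. The part of other cells in the results was not tested. The library numbers in the sample titles form 1 run per background, so strain and library series cannot be told apart.

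Estimates were less precise in C57BL/6J. In the authors' deposited tables the median SE of the log2 change was 0.77 in C57BL/6J and 0.31 in B6CASTF1, and it was the larger of the 2 in C57BL/6J for 94.3% of genes. Combined, the SE of the strain difference had a median of 0.87, so that a gene of median precision needed a difference of 2.94 on the log2 scale to be called. For the 2438 genes whose mean count was 1000 or more the median SE was 0.49 and the required difference was 1.65.

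Over all 7780 genes, 70.7% changed with the same sign in both backgrounds, and 63.3% did among those called in neither. In the authors' deposited tables, 29.5% of the 7780 genes passed an adjusted p of 0.05 in B6CASTF1 (1081 rose, 13.9%, and 1215 fell, 15.6%) and 9.65% did in C57BL/6J (534 rose, 6.86%, and 217 fell, 2.79%). Both strains called 416 genes in the same direction (5.35%), of which 271 rose and 145 fell, and 13 genes in opposite directions (0.167%). Of the 2296 genes called in B6CASTF1, 2021 (88.0%) had a change of the same sign in C57BL/6J, and of the 751 called in C57BL/6J, 630 (83.9%) had the same sign in B6CASTF1. Over all 7780 genes the 2 sets of changes had a Pearson correlation of 0.41 and a Spearman correlation of 0.52, and over those whose mean count was 1000 or more of 0.67 and 0.69. These are descriptions across genes, which are not independent, and genes share the libraries of their strain. Genes that rose in both had median log2 changes of 1.57 in B6CASTF1 and 1.70 in C57BL/6J. Genes that fell in both had medians of -1.24 and -1.70.

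Among the genes that rose in both backgrounds were Calm2, which encodes the calcium sensor calmodulin, Txndc9, a regulator of chaperone-assisted folding, and Nol12, a nucleolar protein. Calm2 had a level of 1345 in G1 and 7229 in G2 in B6CASTF1, and 5002 in G1 and 30852 in G2 in C57BL/6J. Its log2 change in the authors' deposited tables was 2.43 ± 0.18 in B6CASTF1 and 2.62 ± 0.24 in C57BL/6J, and the 95% interval of the strain difference was -0.79 to 0.39. The values of Txndc9 in the authors' deposited tables were 2.42 ± 0.18 and 2.69 ± 0.31, and those of Nol12 were 2.89 ± 0.33 and 3.04 ± 0.18. Cnot1, the scaffold of the CCR4-NOT deadenylase, also rose in both, with 1.38 ± 0.19 and 1.71 ± 0.32 in the authors' deposited tables. For each of these 4 genes the interval of the strain difference included 0 and was narrower than 1 log2 unit on each side of its centre.

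The maternal transcripts Gdf9, Bub1b, H1foo and Mos fell in both. Gdf9, an oocyte growth factor, had a level of 149021 in G1 and 12579 in G2 in B6CASTF1, and 25963 in G1 and 2958 in G2 in C57BL/6J. The log2 change of Gdf9 in the authors' deposited tables was -3.57 ± 0.17 in B6CASTF1 and -3.13 ± 0.46 in C57BL/6J. Bub1b, a spindle checkpoint kinase, had -3.95 ± 0.19 and -3.25 ± 0.67, and H1foo, the oocyte linker histone, had -3.48 ± 0.22 and -2.98 ± 0.62, in the authors' deposited tables. Mos, the MAP kinase pathway activator of metaphase arrest, had a level of 6179.8 in G1 and 369 in G2 in B6CASTF1, and 1458 in G1 and 171 in G2 in C57BL/6J, and its strain difference of -0.97 ± 1.02 did not pass (adjusted p = 0.996). Lbr, the lamin B receptor of the nuclear envelope, and Tet3, the dioxygenase that oxidizes methylcytosine in the paternal pronucleus, fell as well, by the authors' deposited tables. The strain difference was 0.91 ± 0.37 for Lbr (adjusted p = 0.306) and 0.11 ± 0.40 for Tet3 (adjusted p = 0.999).

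The cytoplasmic polyadenylation element, the 3′ UTR motif that marks stored mRNAs for regulated tail extension, was looked up because the tail is what the assay captures. The motifs TTTTAT and TTTTAAT were searched on the transcript strand in the last 150 bases of the 3′ UTR, in the reference sequence of C57BL/6J and not in the CAST alleles. The UTR was that of the longest coding transcript and had to be at least 50 bases long. A UTR shorter than 150 bases was searched whole. One motif or the other was found in 27.2% of the 7101 tested genes with such a UTR. The share was 44.0% (62 of 141) among genes that fell in both strains and 18.4% (42 of 228) among those that rose in both. It was 39.3% (398 of 1013) among genes called as falling in B6CASTF1 alone and 16.5% (117 of 709) among those called as rising there alone. Among genes whose change differed between strains it was 22.9% (8 of 35) where the difference was higher in B6CASTF1 and 21.9% (14 of 64) where it was lower. Among the genes named above, Calm2 and Cnot1, which rose in both strains, and Lbr and Tet3, which fell in both, had a match that is not shown. The windows below come from GRCm38, 5′ to 3′, with the motif in capitals, and show the match in 3 genes that fell in both strains, 1 that rose in both and 3 whose change differed.
Gdf9: agagtgctgtggTTTTATgtgacggaagaa
H1foo: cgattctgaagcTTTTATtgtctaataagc
Bub1b: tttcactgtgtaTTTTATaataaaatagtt
Txndc9: ttttgtgattgaTTTTATcataacgtgatt
Snrpd3: ctgtttggtttaTTTTATtgtattaataaa
Mfsd2a: aatgtagaaacgTTTTATacagagactaat
Hecw2: gtgtacaatttgTTTTATtttcatactgat
The windows lie at chr11:53437854-53437883 (plus), chr6:115950157-115950186 (plus), chr2:118641553-118641582 (plus), chr1:37987410-37987439 (minus), chr10:75537336-75537365 (plus), chr4:122946944-122946973 (minus) and chr1:53806943-53806972 (minus) strand, in this order. A match describes these letters and is not a measured site.

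The strain difference passed an adjusted p of 0.05 for 110 of 7780 genes (1.41%), with 39 higher in B6CASTF1 (0.501%) and 71 lower (0.913%). This balance turned with the setting, to 117 higher of 216 at a mean count of at least 10 and 13 higher of 21 by Bonferroni. The median difference over all genes was -0.01, with the middle 50% of genes between -0.57 and 0.52. By the authors' calls, 70 of the 110 were called in C57BL/6J alone, 20 in B6CASTF1 alone, 13 in opposite directions, 6 in the same direction and 1 in neither. Most genes called in 1 strain alone did not pass the test of the difference. Of the 1867 genes called in B6CASTF1 alone, 20 (1.07%) passed the test of the difference, and of the 322 called in C57BL/6J alone, 70 (21.7%) did. At an unadjusted p under 0.05 the count was 741 (9.52%). The 95% interval of the difference lay wholly within 1 log2 unit of 0 for 527 genes (6.77%), of which 81 had been called the same way in both strains, and for 82 of the called genes it lay wholly beyond 1 log2 unit. With both SE raised 1.5 times 5 calls were left, so the other calls rest on the authors' SE being accurate. Of the 5, Atf7ip2 alone had a level of at least 10 in all 4 groups. In C57BL/6J, Prps1 had a level of 0.150 and Clu was at or near 0 in G1, and Pex16 and Fam58b had levels of 1.28 and 2.05 in G2.

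**Figure D1:**
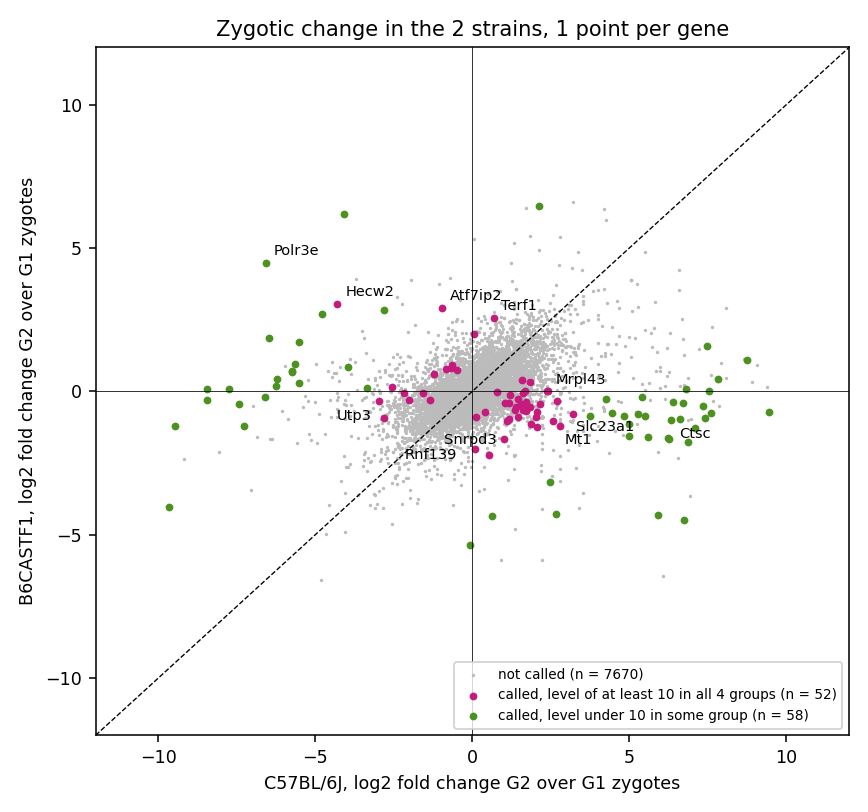
Log2 fold change of G2 over G1 zygotes in C57BL/6J (horizontal) and B6CASTF1 (vertical) for the 7780 genes, 1 point per gene, with the dashed line marking equal change; 2 genes fall outside the axes. The 110 called genes lie away from the line, 52 with a level of at least 10 in all 4 groups and 58 with a lower level in some group.

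Called genes were put into classes by level, which is not the precision of the difference. Of the 110, 52 had a level of at least 10 in G1 and G2 of both strains (16 higher in B6CASTF1 and 36 lower, of 7264 such genes tested). The other 58 were under 10 in some group, and 37 of these were under 1. The 1060 genes under a level of 100 in both zygote groups of a strain held 55 of the 110 calls. Of the 71 genes with the lower change in B6CASTF1, 32 were under 10 in C57BL/6J G1 zygotes, and of the 39 with the higher change, 22 were under 10 in C57BL/6J G2 zygotes. Genes of the first class are described next.

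The genes with the higher change in B6CASTF1 at such levels were mostly of a pair of groups: 8 that rose in B6CASTF1 and were not called in C57BL/6J, and 6 that fell in C57BL/6J and were not called in B6CASTF1. Atf7ip2 (chromosome 16, 10192712 to 10251478, plus strand, GRCm38), a relative of the SETDB1 partner ATF7IP, led the first group. Its level was 52.6 in G1 and 399 in G2 in B6CASTF1, and 124 in G1 and 63.7 in G2 in C57BL/6J. The log2 change of Atf7ip2 in the authors' deposited tables was 2.92 ± 0.32 in B6CASTF1 (adjusted p = 2.52e-18) and -0.96 ± 0.55 in C57BL/6J (adjusted p = 0.349). The difference was 3.89 ± 0.64 (95% interval 2.64 to 5.13, adjusted p = 6.65e-07). In both strains the level was higher again in 2-cell embryos, at 6236 in B6CASTF1 and 2031 in C57BL/6J.

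Terf1 (chromosome 1, 15805646 to 15844052, plus strand), a shelterin subunit that binds telomeric DNA, was picked out after its values were seen, because its difference had the smallest p-value after Atf7ip2 among genes at such levels. Its level was 459 in G1 and 2708 in G2 in B6CASTF1, and 1150.1 in G1 and 1837 in G2 in C57BL/6J. In the authors' deposited tables the log2 change was 2.56 ± 0.19 in B6CASTF1 (adjusted p = 2.25e-38) and 0.68 ± 0.28 in C57BL/6J (adjusted p = 0.119), a difference of 1.88 ± 0.34 (adjusted p = 8.46e-06). In C57BL/6J the earlier step, from the MII egg to the G1 zygote, had a log2 change of 1.38 in the authors' deposited table (adjusted p = 8.71e-05). B6CASTF1 eggs were not analysed here, and the earlier and later steps in C57BL/6J share the G1 samples.

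Mfsd2a, a transporter of lysophospholipids that carry long-chain fatty acids (chromosome 4, 122946850 to 122961188, minus strand), had a level of 864 in G1 and 3477 in G2 in B6CASTF1, and 484 in G1 and 503 in G2 in C57BL/6J. Its difference was 1.95 ± 0.48 (adjusted p = 0.00705). Hecw2, a HECT-type ubiquitin ligase (chromosome 1, 53806876 to 54195168, minus strand), had the largest difference at such levels, 7.35 ± 2.07 (adjusted p = 0.0314). The level of Hecw2 was 27.8 in G1 and 232 in G2 in B6CASTF1, and 274 in G1 and 13.9 in G2 in C57BL/6J, and its change in C57BL/6J did not pass by itself in the authors' deposited table (adjusted p = 0.142). The rest of the group were Cnot2, a core subunit of the CCR4-NOT deadenylase, Cnih1, a cargo receptor for export from the endoplasmic reticulum, Me2, the mitochondrial malic enzyme, and 1110008F13Rik. Their differences were between 1.23 (Cnih1) and 1.62 (Cnot2). Cnot2 had a level of 2563 in G1 and 4421 in G2 in B6CASTF1, and 1577 in G1 and 888 in G2 in C57BL/6J.

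Next come the 6 genes at such levels that differed and were called as falling in C57BL/6J alone. Utp3 (chromosome 5, 88554462 to 88556090, plus strand), a nucleolar factor of small ribosomal subunit assembly, had the smallest p-value of the difference among them. Its level was 830.0 in G1 and 657 in G2 in B6CASTF1, and 607 in G1 and 77.5 in G2 in C57BL/6J, and the difference was 2.63 ± 0.50 (adjusted p = 6.29e-05). The C57BL/6J G2 level of Utp3 was the low point of 4 stages, with 494 in MII eggs and 2584 in 2-cell embryos. Gpr3, the receptor whose signalling keeps the oocyte in meiotic arrest, had a level of 376 in G1 and 363 in G2 in B6CASTF1, and 342 in G1 and 76.4 in G2 in C57BL/6J (difference 2.11 ± 0.61, adjusted p = 0.0414). Mtmr6, a phosphoinositide phosphatase, had a level of 152 in G1 and 168 in G2 in B6CASTF1, and 122 in G1 and 20.8 in G2 in C57BL/6J (difference 2.70 ± 0.73, adjusted p = 0.0225). Psmb5, the chymotrypsin-like catalytic subunit of the proteasome, Pex11a, a peroxisome division factor, and Ubxn4, a component of endoplasmic reticulum quality control, differed by 1.53 ± 0.42, 1.71 ± 0.50 and 1.06 ± 0.28. Nfrkb, a subunit of the INO80 chromatin remodeller, fell in both strains but by less in B6CASTF1, with log2 changes of -0.94 ± 0.16 and -2.80 ± 0.45 in the authors' deposited tables (difference 1.86 ± 0.48, adjusted p = 0.0119). Zc3h12c was called in neither strain and passed the test of the difference (1.85 ± 0.52, adjusted p = 0.0294).

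**Figure D2:**
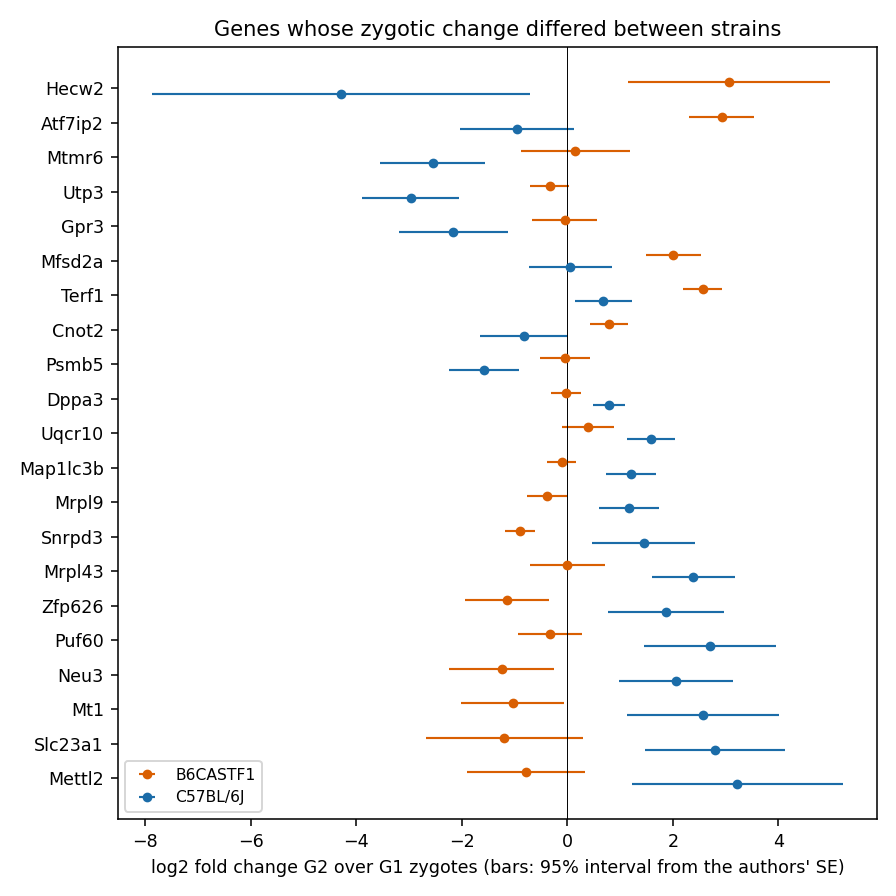
Log2 fold change of G2 over G1 zygotes in B6CASTF1 (orange) and C57BL/6J (blue) for 21 genes called in the strain difference, with bars for the 95% interval from the authors' SE. The upper 9 genes had the higher change in B6CASTF1 and the lower 12 the higher change in C57BL/6J, and most bars are wider in C57BL/6J.

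The genes with the lower change in B6CASTF1 included 27 at such levels that were called as rising in C57BL/6J alone and 7 called as falling in B6CASTF1 alone. The lowest differences at such levels belonged to Mettl2, a tRNA methyltransferase, and Slc23a1, a vitamin C transporter. Mettl2 had a level of 33.1 in G1 and 19.2 in G2 in B6CASTF1, and 12.9 in G1 and 119.8 in G2 in C57BL/6J (difference -4.00 ± 1.17, adjusted p = 0.0441). Slc23a1 had a level of 85.2 in G1 and 37.2 in G2 in B6CASTF1, and 129 in G1 and 899.7 in G2 in C57BL/6J (difference -4.00 ± 1.01, adjusted p = 0.0101). Mt1 (chromosome 8, 94179082 to 94180327, plus strand), which encodes a metal-binding metallothionein, had a level of 39.9 in G1 and 19.4 in G2 in B6CASTF1, and 40.0 in G1 and 238 in G2 in C57BL/6J. In 2-cell embryos the level of Mt1 was 12773 in B6CASTF1 and 35229 in C57BL/6J. Its log2 change in the authors' deposited tables was -1.04 ± 0.50 in B6CASTF1 (adjusted p = 0.138) and 2.57 ± 0.74 in C57BL/6J (adjusted p = 0.0105), and the difference was -3.61 ± 0.89 (adjusted p = 0.00691). Neu3, a sialidase of the plasma membrane, and Puf60, a splicing factor, differed by -3.31 ± 0.75 (adjusted p = 0.0019) and -3.03 ± 0.71 (adjusted p = 0.00322). The G1 level of Puf60 in C57BL/6J, 46.8, lay below that of MII eggs at 204 and that of G2 zygotes at 304.

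Dppa3 (chromosome 6, 122626410 to 122630272, plus strand), the maternal factor also known as Stella that protects the maternal genome from demethylation, had the only called difference of under 1 log2 unit. Its level was 102535 in G1 and 100995 in G2 in B6CASTF1, and 250274 in G1 and 434077 in G2 in C57BL/6J. The log2 change in the authors' deposited tables was -0.02 ± 0.14 in B6CASTF1 (adjusted p = 0.97) and 0.79 ± 0.16 in C57BL/6J (adjusted p = 2.54e-05), and the difference was -0.82 ± 0.21 (95% interval -1.23 to -0.40, adjusted p = 0.0129). Map1lc3b, the LC3B protein of autophagosome membranes, had a level of 2195 in G1 and 2030.2 in G2 in B6CASTF1, and 1155 in G1 and 2664 in G2 in C57BL/6J (difference -1.32 ± 0.28, adjusted p = 0.000689). Its level in 2-cell embryos was 219437 in B6CASTF1 and 318186 in C57BL/6J. Also among the 27, Mrpl9 and Mrpl43 of the mitochondrial ribosome differed by -1.56 ± 0.35 and -2.39 ± 0.54, Uqcr10 of respiratory complex III by -1.20 ± 0.34, the copper chaperone Cox17 by -2.93 ± 0.82 and the mitochondrial DNA-binding protein Ssbp1 by -1.66 ± 0.49. Mrpl43 had a level of 31.0 in G1 and 30.9 in G2 in B6CASTF1, and 47.9 in G1 and 251 in G2 in C57BL/6J. Arpc3 of the actin-nucleating ARP2/3 complex had a level of 988 in G1 and 1005 in G2 in B6CASTF1, and 1118 in G1 and 5936 in G2 in C57BL/6J (difference -2.38 ± 0.68, adjusted p = 0.0358). H2-T23, a non-classical MHC class I gene, also passed (-1.75 ± 0.52, adjusted p = 0.0487), and as a member of a family of near copies its counts are uncertain.

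The 7 genes at such levels that differed and were called as falling in B6CASTF1 alone were Rnf139, Chchd10, Rab11fip1, Ghitm, Polr2d, Cpsf6 and Fam161b. Rnf139, a ubiquitin ligase of the endoplasmic reticulum, had a level of 1738 in G1 and 428 in G2 in B6CASTF1, and 1374 in G1 and 1443 in G2 in C57BL/6J, and its difference was -2.09 ± 0.60 (adjusted p = 0.0387). Chchd10 of the mitochondrial intermembrane space and Rab11fip1 of recycling endosomes differed by -2.75 ± 0.76 and -2.66 ± 0.73. Polr2d, a subunit of RNA polymerase II, and Cpsf6, a 3′ end processing factor, differed by -1.02 ± 0.30 (adjusted p = 0.0483) and -2.14 ± 0.63 (adjusted p = 0.0487). Rnf139, Ghitm, Polr2d and Cpsf6, with Mettl2, Uqcr10, Ssbp1, H2-T23 and Dancr, no longer passed when each strain was recentred on its median change (-0.07 in B6CASTF1 and -0.01 in C57BL/6J).

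The authors' calls went in opposite directions for 13 genes, 9 that fell in B6CASTF1 and rose in C57BL/6J and 4 that rose in B6CASTF1 and fell in C57BL/6J. Genes chosen this way pass the test of the difference almost by construction, and all 13 did. Of these, 2, Snrpd3 and Zfp626, had a level of at least 10 in all 4 groups. Snrpd3 (chromosome 10, 75517551 to 75537381, plus strand) encodes an Sm core protein of spliceosomal snRNPs, and its level was 4183 in G1 and 2234 in G2 in B6CASTF1, and 5275 in G1 and 14364 in G2 in C57BL/6J. Its log2 change in the authors' deposited tables was -0.90 ± 0.15 in B6CASTF1 (adjusted p = 2.25e-08) and 1.45 ± 0.50 in C57BL/6J (adjusted p = 0.0484), and the difference was -2.35 ± 0.52 (adjusted p = 0.00139). Zfp626, a zinc finger gene, had a level of 116 in G1 and 52.6 in G2 in B6CASTF1, and 263 in G1 and 963 in G2 in C57BL/6J (difference -3.01 ± 0.69, adjusted p = 0.00229). Zinc finger genes of this kind have near copies, so its counts are uncertain.

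The other 11 had a low level in at least 1 group. Timd2, a cell surface receptor of the TIM family, had a level of 70.8 in G1 and 38.8 in G2 in B6CASTF1, and 1.66 in G1 and 74.9 in G2 in C57BL/6J (difference -6.36 ± 1.28, adjusted p = 0.000218). Cyp2e1, a cytochrome P450, had a level of 67.6 in G1 and 7.60 in G2 in B6CASTF1, and 192 in G1 and 1075 in G2 in C57BL/6J (difference -5.63 ± 1.199, adjusted p = 0.00066). In the opposite direction, Loxl1, a lysyl oxidase, had a level of 56.5 in G1 and 187 in G2 in B6CASTF1, and 94.1 in G1 and 2.06 in G2 in C57BL/6J (difference 7.24 ± 1.47, adjusted p = 0.00025), and Ercc1, a DNA repair endonuclease subunit, one of 14.8 in G1 and 96.5 in G2 in B6CASTF1, and 55.95 in G1 and 2.04 in G2 in C57BL/6J (difference 7.48 ± 1.59, adjusted p = 0.000661). Polr3e, a subunit of RNA polymerase III, had a level of 0.733 in G1 and 16.3 in G2 in B6CASTF1, and 18.4 in G1 and 0.193 in G2 in C57BL/6J (adjusted p of the difference = 0.000455). Zfp622 had a level of 20.5 in G1 and 8.42 in G2 in B6CASTF1, and 0.150 in G1 and 20.5 in G2 in C57BL/6J (adjusted p of the difference = 0.000901). No fold is given for the last 2 genes, because a level under 1 makes it depend on a few reads. At an adjusted p of 0.01 in both strains 2 of the 13 opposite calls were left.

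**Figure D3:**
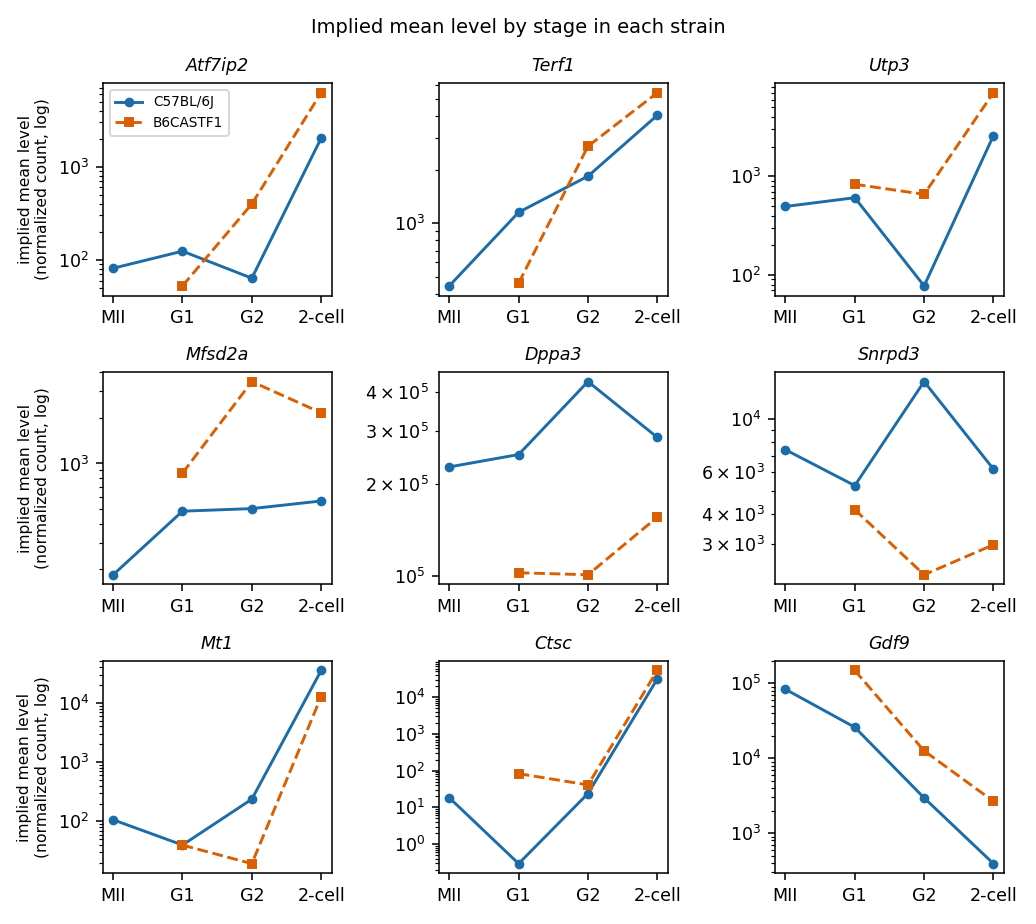
Implied mean level (normalized count, log axis, each panel with its own range) by stage for 9 genes in C57BL/6J (circles, from the MII egg on) and B6CASTF1 (squares, from the G1 zygote on), without error bars, since only group means could be derived. Between G1 and G2 the lines of Atf7ip2, Snrpd3, Mt1 and Ctsc run in opposite directions, while those of Gdf9 fall side by side. The fall of Atf7ip2 in C57BL/6J and that of Mt1 in B6CASTF1 were not called by themselves. Dppa3 is nearly level in B6CASTF1 and rises in C57BL/6J.

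Some calls belonged to genes that are far more abundant in the 2-cell embryo than in the zygote. A set picked after the values were seen, of genes at least 100 times higher in 2-cell embryos than in G2 zygotes of both strains, held 233 of the tested genes, of which 19 were called (17 lower and 2 higher in B6CASTF1). Mt1 and Map1lc3b, described above, are among the 19. The choice used the G2 samples of the comparison, and such genes could enter through their 2-cell level, so their share of calls (8.15%, beside 1.41% of all genes) is given with no reading. Within C57BL/6J, 128 of the 233 were under a level of 1 in G1 zygotes and 61 in G2 zygotes. Within B6CASTF1, 29 were in G1 and 41 in G2 zygotes. As a percentage of the strain's own 2-cell level, the median was 0.128% in C57BL/6J MII eggs, 0.0318% in G1 and 0.126% in G2 zygotes, and 0.200% and 0.208% in B6CASTF1 G1 and G2 zygotes. For Ctsc, the protease cathepsin C, the level was 82.5 in G1 and 40.8 in G2 in B6CASTF1, and 0.293 in G1 and 23.7 in G2 in C57BL/6J, beside 53180.1 and 31217 in 2-cell embryos of the 2 strains. Whether a small carry-over between libraries contributed to these levels was not tested. Without the 233 genes 91 calls were left, 37 higher and 54 lower.

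By function, no list of genes held more than 3 called members, where 1.41% of all genes were called. Ribosomal protein and oxidative phosphorylation transcripts had medians above 0 in both strains and larger ones in C57BL/6J. Of 80 cytosolic ribosomal protein genes, 17 rose in both, 26 rose and 6 fell in B6CASTF1, and 27 rose and none fell in C57BL/6J, by the authors' calls. Over all genes 13.9% rose and 15.6% fell in B6CASTF1, and 6.86% and 2.79% in C57BL/6J. The ribosomal list had a median change of 0.46 in B6CASTF1 and 0.78 in C57BL/6J. Its median strain difference was -0.41 beside -0.01 for all genes, with none called by the normal test (at an unadjusted p under 0.05, 1 higher and 11 lower). The nearest was Rpl17 with a difference of 1.07 ± 0.32 (adjusted p = 0.0508), on the other side of 0 from the list's median. It passed after recentring (adjusted p = 0.0314). The 74 nuclear-encoded genes of oxidative phosphorylation had medians of 0.18 and 0.69 and a median difference of -0.39, with Uqcr10 called. The electron carrier cytochrome c, Cycs, had a difference of -0.95 ± 0.29 that did not pass (adjusted p = 0.0558). The 73 mitochondrial ribosomal protein genes had a median difference of -0.14, with Mrpl9 and Mrpl43 called lower and Mrpl33 called higher. Mrpl33 rose in both strains, from a level of 1.59 to 140.2 in B6CASTF1 and from 173 to 749 in C57BL/6J.

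Transcript length went with the difference as follows. The 439 genes with a longest coding transcript of up to 1000 bases had a median difference of -0.40, from medians of 0.13 in B6CASTF1 and 0.71 in C57BL/6J. The median difference was -0.04 in the 1566 genes of 1001 to 2000 bases and 0.13 in the 1029 genes of over 6000 bases. The median length was 896.5 bases for the ribosomal list and 870 for the oxidative phosphorylation list, against 3060 over all genes. It was 5525 for the list of DNA methylation and chromatin modifiers, whose median difference was 0.30. The part of transcript length in the medians of these lists was not tested. Across the 7204 genes with a length (92.6%) the Spearman correlation of length with the difference was 0.10, and that of GC content was -0.04, both as descriptions across genes.

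**Figure D4:**
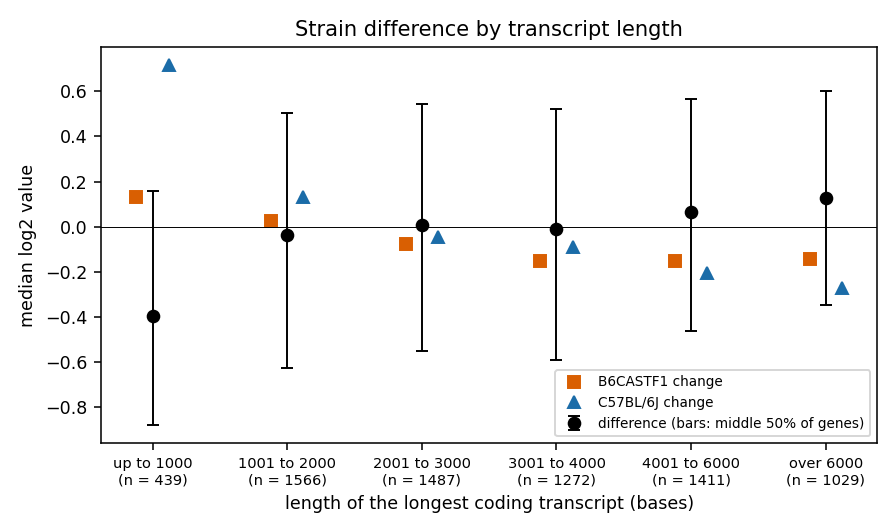
Median strain difference (black, bars spanning the middle 50% of genes) and median log2 change in B6CASTF1 (squares) and C57BL/6J (triangles) in 6 bins of transcript length. The shortest bin has a median difference of -0.40 and the longest one of 0.13, and the bars of all bins include 0.

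The counts of calls in the next lists stand beside 1.41% of all genes, and nothing about a list is read from them. Of 45 genes of mRNA decay and polyadenylation, 2 were called, Cnot2 and Cnot10, both higher in B6CASTF1 (level of 11.1 in G1 and 79.8 in G2 in B6CASTF1, and 16.9 in G1 and 2.41 in G2 in C57BL/6J for Cnot10). The list's median difference was -0.14. Of 46 oocyte-specific genes, Dppa3 was called, and 8 rose and 15 fell in B6CASTF1 against 1 and 3 in C57BL/6J, by the authors' calls, which covered 29.5% of all genes in B6CASTF1 and 9.65% in C57BL/6J. Among 42 regulators of meiotic exit and M phase, the inhibitory kinase Wee1 was called (level of 35.8 in G1 and 77.2 in G2 in B6CASTF1, and 0.150 in G1 and 65.0 in G2 in C57BL/6J, adjusted p of the difference = 0.00312). Of 52 DNA methylation and chromatin modifiers, 3 were called and the median difference was 0.30. They were Dppa3, the histone chaperone Hira (level of 56.4 in G1 and 32.4 in G2 in B6CASTF1, and 4.13 in G1 and 161 in G2 in C57BL/6J) and the deacetylase Hdac1 (level of 106 in G1 and 193 in G2 in B6CASTF1, and 70.5 in G1 and 4.49 in G2 in C57BL/6J). The last 2 were under a level of 10 in 1 C57BL/6J group. In the 55 genes of the spliceosome, Snrpd3 was called, and the medians of -0.12 in B6CASTF1 and 0.23 in C57BL/6J lay on either side of 0. Psmb5 of 35 proteasome genes, Arpc3 of 34 actin cortex genes and the chaperonin subunit Cct6a of 31 chaperones were the called genes of their lists. Cct6a was at or near 0 in C57BL/6J G1 zygotes (adjusted p of the difference = 0.000123). In B6CASTF1 its level was 13.4 in G1 and 43.9 in G2. With the authors' shrunken changes the difference of Cct6a was only -0.87.

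**Figure D5:**
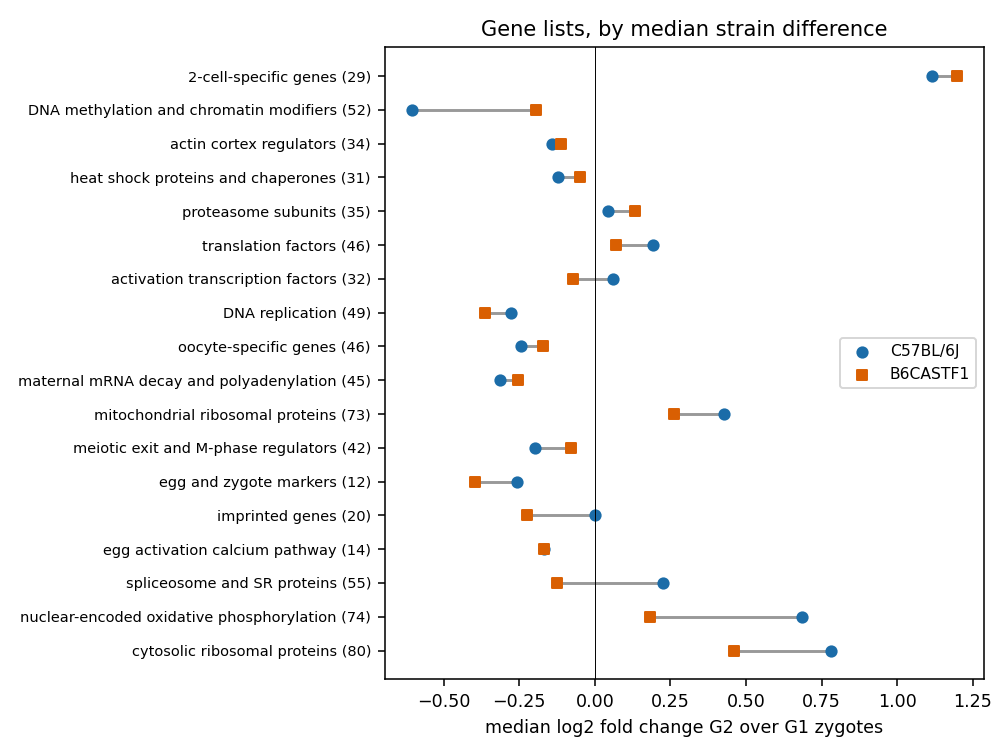
Median log2 fold change of G2 over G1 zygotes in C57BL/6J (circles) and B6CASTF1 (squares) for the 18 gene lists with at least 10 tested genes, ordered by the median of the genes' strain differences, which need not equal the gap between the 2 medians. Ribosomal and oxidative phosphorylation genes lie at the bottom with differences of -0.41 and -0.39, and 2-cell genes at the top with 0.52.

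The 29 genes known for expression in the 2-cell embryo had median changes of 1.197 in B6CASTF1 and 1.11 in C57BL/6J, and none was called in the difference (2 higher and 2 lower at an unadjusted p under 0.05). In B6CASTF1 10 rose, and in C57BL/6J 1 did, by the authors' calls, beside 13.9% and 6.86% of all genes. The median combined SE of the list was 1.42, against 0.87 over all genes. Zscan4d and Zscan4f, near-identical genes of the totipotent state whose counts are uncertain, rose in B6CASTF1, with 1.79 ± 0.48 and 2.57 ± 0.51 in the authors' deposited table. In C57BL/6J the values in the authors' deposited table were -0.05 ± 1.27 and 1.01 ± 0.94, neither called. The intervals of their differences were -0.82 to 4.49 and -0.54 to 3.66, so a strain difference was not detectable at this precision, and both intervals hold differences of more than 3 log2 units. Zfp352 had 0.89 ± 1.07 and 0.96 ± 0.64 in the authors' deposited tables, with neither called. Dux, a transcription factor upstream of 2-cell genes, had a mean count under 100 and was not among the genes compared.

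Nr5a2 (chromosome 1, 136842571 to 136960448, minus strand), the orphan nuclear receptor in the title of the series, had a level of 107 in G1 and 187 in G2 in B6CASTF1, and 142 in G1 and 83.9 in G2 in C57BL/6J. Its log2 change in the authors' deposited tables was 0.80 ± 0.51 in B6CASTF1 (adjusted p = 0.302) and -0.76 ± 0.57 in C57BL/6J (adjusted p = 0.531). The difference of 1.57 ± 0.76 had a 95% interval of 0.07 to 3.06 before adjustment and did not pass (adjusted p = 0.546). In 2-cell embryos its level was 3341 in B6CASTF1 and 724 in C57BL/6J. Of 32 transcription factors linked to genome activation none was called (2 higher and 1 lower at an unadjusted p under 0.05). Nanog had a difference of -1.97 ± 0.62 (adjusted p = 0.0822). The maternal genes Btg4, an adaptor of CCR4-NOT, and Obox5, an oocyte homeobox gene, had differences of 0.24 ± 0.33 and 0.09 ± 0.36, with intervals of -0.42 to 0.90 and -0.62 to 0.80. The histone demethylase Kdm5b had -0.05 ± 0.99, with an SE too large to place it.

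At 1.41% of all genes called, lists of this size can hold no call by their size alone. None of 49 DNA replication genes, 46 translation factors, 14 genes of the calcium pathway of egg activation and 20 imprinted genes passed, and their median differences were -0.06, 0.01, -0.21 and -0.20, the first of which was 0.01 after recentring. At an unadjusted p under 0.05, 1 replication gene was higher and 5 lower, 1 translation factor was higher and 5 lower, and no gene of the last 2 lists passed.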

How the data were processed

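Poly(A) RNA of 12 samples, 3 per group, was compared through the authors' tables. Per the submitters' processing notes, the tools named are DESeq2, kallisto, TopHat, Picard and bcl2fastq and the build is mm10. Their roles and settings are not given in the sources used here, except that the authors made the comparisons with DESeq2 1.18.1, as the file names say. Per the file headers, each deposited table gives 1 row a gene: the mean normalized count, the log2 fold change as estimated and after shrinkage, its SE, the Wald score that divides the first by the SE, and p-values before and after adjustment. Values of single samples are not in them, so depth is unknown and precision was read from the SE.

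The members and gene lists were chosen with earlier results of these data known. The strain difference was divided by the root of the summed squared SE, and its 2-sided normal p-value was adjusted by Benjamini-Hochberg over all 15324 genes with a p-value in both strains. The strains share no sample. The computation was tested on simulated data. Their noise was drawn from the authors' SE, so the simulation could not show whether those SE are accurate. A gene was called at an adjusted p under 0.05. Levels per group were solved from the strain's mean count by the deposited fold changes, with weights of 3 samples a stage and 2 for B6CASTF1 2-cell embryos. Transcripts, coordinates and 3′ UTRs came from GENCODE M21 on GRCm38, in which 7473 of the 7780 gene symbols were found.

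Named genes were the 6 highest and 6 lowest called differences with a level of at least 10 in all 4 groups and a regular symbol, the 6 opposite calls and 4 shared calls with the smallest p, the 2 smallest p of each list, and 15 genes whatever their values. Other genes were named after their values were seen. Alternatives were stricter thresholds, Bonferroni, other count minimums, recentring, larger SE and shrunken changes. Tables were handled with pandas 2.3.3 and numpy 2.4.6, p-values came from scipy 1.17.1 and plots from matplotlib 3.10.9, in Python 3.11.15.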

Additional observations from a re-analysis of the deposited data

Results flagged for a closer look

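These results are listed because the test of the strain difference itself passed, that is, the G2 over G1 change was not the same in B6CASTF1 and C57BL/6J beyond the combined SE. The count of such genes was 110 of 7780.

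Among the genes named by rule, the log2 difference was higher in B6CASTF1 for Ercc1 (7.48), Hecw2 (7.35), Loxl1 (7.24), Cnot10 (5.66), Atf7ip2 (3.89), Epcam (3.46), Mtmr6 (2.70), Utp3 (2.63), Gpr3 (2.11), Mfsd2a (1.95), Cnot2 (1.62) and Psmb5 (1.53). It was lower in B6CASTF1 for Timd2 (-6.36), Hira (-6.09), Cyp2e1 (-5.63), Mettl2 (-4.00), Slc23a1 (-4.00), Mt1 (-3.61), Neu3 (-3.31), Puf60 (-3.03), Zfp626 (-3.01), Mrpl43 (-2.39), Arpc3 (-2.38), Snrpd3 (-2.35), Mrpl9 (-1.56), Uqcr10 (-1.20) and Dppa3 (-0.82). Of these genes, Ercc1, Loxl1, Cnot10, Epcam, Timd2 and Hira were under a level of 10 in a C57BL/6J group, and Cyp2e1 in B6CASTF1 G2 zygotes. Their differences depend on a low level in that group. A level of at least 10 does not make a difference precise, and that of Hecw2 had an SE of 2.07. For Cct6a, Polr3e, Wee1 and Zfp622, each with a level under 1 in some group, only the adjusted p of the difference is given, at 0.000123, 0.000455, 0.00312 and 0.000901. No explanation was tested for any of them.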

How the results depend on the processing

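The number of calls, 110, changed with the error, the threshold and the count minimum. They numbered 50 at an adjusted p of 0.01 (19 higher in B6CASTF1), 21 by Bonferroni (13 higher), 5 with both SE raised 1.5 times, 34 at a mean count of at least 1000 (6 higher) and 52 with a level of at least 10 in all 4 groups (16 higher). At a mean count of at least 10 they numbered 216, of which 117 were higher. The balance of higher and lower thus changed with the count minimum, and it turned by Bonferroni as well. Adjusting over the 7780 genes gave 105, recentring 103 (41 higher), a difference of at least 1 gave 109, and the 2 alternatives chosen after seeing the data gave 124 (adjusting over genes with the authors' adjusted p) and 91 (without genes abundant in 2-cell embryos). The 13 opposite calls became 2 at an adjusted p of 0.01 and 2 with the minimum level, and the 416 shared calls became 258 at 0.01. Of the 110 genes, 105 lost their call with the larger SE and 9 with recentring. Kdm5b, which was not called, turned from -0.05 to 0.014 with recentring. Shrunken changes moved 3 of the 110, Actn4, Cct6a and Clu, by more than their SE and reversed none. For Cct6a the difference was -0.87 with shrunken changes. The cause of these shifts was not tested beyond what each setting does. No paired analysis was possible because the deposited tables give no single samples, and leaving out each replicate was not run for the same reason.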
